A study of Mus musculus with 2 samples.

Results

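The histone methyltransferases and demethylases of mouse were read on 2 one-colour microarrays that compared 2 kinds of epiblast stem cell. Members were taken by symbol from the array's own gene names. The lysine methyltransferases were the Setd, Setdb, Setmar, Suv39h, Suv420h, Ehmt, Kmt2, Smyd, Nsd1, Whsc1, Whsc1l1, Dot1l and Ash1l genes with the H3K4 complex subunit Ash2l, the arginine methyltransferases were the Prmt genes and Carm1, and the demethylases were the Kdm genes other than Kdm2b. The rule used no measured value except to pick the probe of each gene, which was the brightest of those well above background on at least 1 array. It gave 60 genes of 34650 gene names on the array, and they were covered by 100 probes.

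Both cultures started from E14Tg2A embryonic stem (ES) cells, a mouse line of strain 129/Ola that had been grown with serum and LIF. EpiSC came straight from ES cells given 20 ng/mL Activin A and 12 ng/mL FGF2 in a serum-free defined medium with N2 and B27. ELA-EpiSC received the same medium and factors, but were made from epiblast-like aggregates (ELA), the floating clusters that ES cells form once serum and LIF are withdrawn. The comparison addressed how similar these epiblast stem cells are when the starting cells differ. The labels name no transgene or edited allele in either group. RNA of 3 experiments was pooled for each group and 50 ng was labelled, so each group is 1 pool on 1 array, no difference below has a replicate check, and no p-value was computed. Titles and descriptions name total RNA of the 2 cultures, yet the source given for EpiSC is an Argonaute immunoprecipitate, and for both samples it is cells before differentiation. Groups were taken from the titles.

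Histone lysine methylation is written mostly by SET-domain enzymes, and at H3K79 by Dot1l, which lacks a SET domain. Marks at H3K4, H3K36 and H3K79 are found at active genes, whereas H3K9 and H4K20 methylation is abundant in heterochromatin. Lysine marks are removed by the amine oxidases Kdm1a and Kdm1b and by enzymes with a Jumonji domain, while arginine residues are methylated by the Prmt family, whose substrates include many proteins other than histones. In pluripotent cells H3K4 and H3K9 methylation is remodelled as the naive state gives way to the primed state of the epiblast.

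Values are log2 normalized signals, and a difference is log2 ELA-EpiSC minus EpiSC, so that a positive value means a higher signal in ELA-EpiSC. The signal of a probe depends on its sequence, so levels are compared between the arrays and not between genes. Of the 60 members, 58 were well above background on both arrays and 0 on only 1 array. The remaining members were Kdm4d, a testis-rich H3K9 demethylase, and Kdm5d, a Y-linked H3K4 demethylase, whose probes read 6.12 and 5.94 in EpiSC and 6.14 and 5.95 in ELA-EpiSC. Differences were counted for the 55 members whose mean signal was at least 7.5. The members below that minimum were Kmt2a (6.55 in EpiSC, 6.77 in ELA-EpiSC), Kdm7a (6.85 and 6.74) and Prmt8 (6.42 and 6.28). Almost the whole family was thus read in both cultures.

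**Figure D1:**
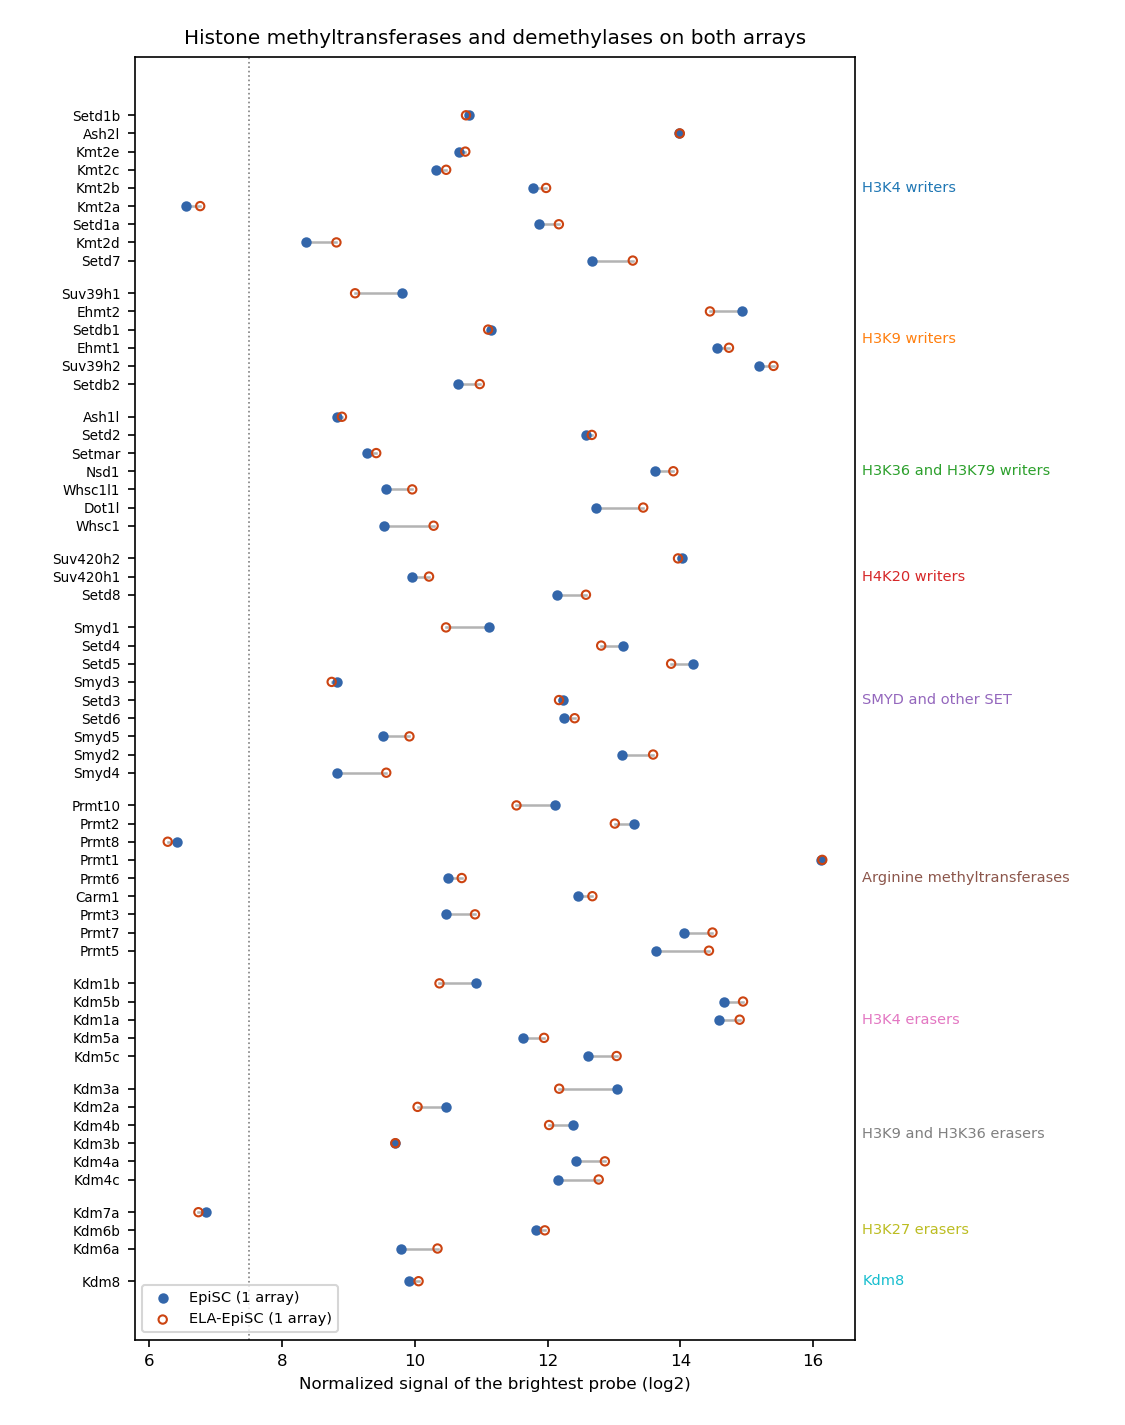
Normalized log2 signal of the brightest probe (x axis) of the 58 members above background (rows, grouped by class), in EpiSC (filled) and ELA-EpiSC (open), 1 array each. The dotted line marks the minimum of 7.5, and the grey bars joining the points are short for most members and longest for Kdm3a and Prmt5.

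The precision of each value is limited by the number of arrays. The only error that could be measured was that of spots on the same array: over 312 probes printed 10 times and well above background, the difference between the arrays had an SD of 0.10 per spot. Setd2, the enzyme that completes H3K36 trimethylation, was the member printed 10 times, and its signal was 12.58 ± 0.19 in EpiSC and 12.67 ± 0.25 in ELA-EpiSC (SD over 10 spots), with a difference of 0.08 ± 0.12. This spot SD holds neither labelling nor culture variation. Differences of 0.5 and of 1 were used as sizes, and 11 of the 55 members lay within the spot SD.

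The family showed small differences that lay mostly on the ELA-EpiSC side. The median difference of the 55 members was 0.18, against 0.00 over the 16649 genes measured the same way. A higher signal in ELA-EpiSC was found in 39 of 55 members (70.9%), where 50.2% of all genes were higher. The differences ran from -0.87 for Kdm3a to 0.79 for Prmt5, and 0 members differed by 1 or more in either direction, a size reached upward by 4.54% and downward by 4.46% of all genes. At 0.5 or more, 7 members were higher (12.7%, where 13.6% of all genes were) and 5 were lower (9.09%, where 13.7% were). In all, 21.8% of the members and 27.3% of all genes passed 0.5, so the members did not differ by that size more often than genes at large, and the difference of the family lay in its centre. The split of 7 higher and 5 lower depended on the scaling: it was 19 and 1 when the arrays were set to equal medians, and 40 and 0 when spike-in RNAs were set equal, settings that shifted the median of all genes by 0.15 and 0.54. The spike-in setting adds the same 0.54 to each difference given below.

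**Figure D2:**
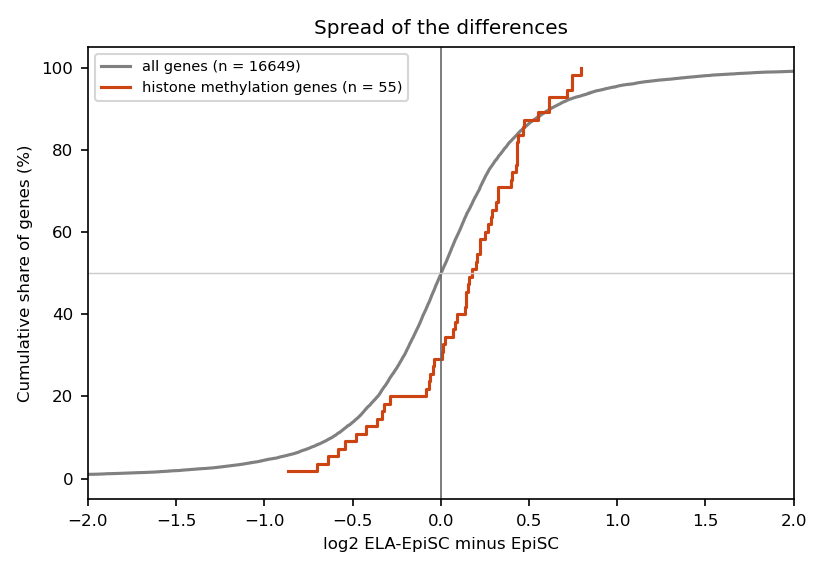
Cumulative share of genes (y axis, %) below each log2 difference, ELA-EpiSC minus EpiSC (x axis), for the 55 members and for all 16649 genes. The curve of the members crosses 50% at 0.18 and reaches its ends at -0.87 and 0.79, inside the tails of all genes.

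The median was positive in each of the 3 broad roles. It was 0.16 for the 33 lysine methyltransferases, of which 23 were higher, 0.21 for the 8 arginine methyltransferases, of which 6 were higher, and 0.21 for the 14 demethylases, of which 10 were higher. The value of the arginine methyltransferases depended on the probe: it was 0.11 with the mean of all probes and 0.040 with the second brightest probe, with 4 of 8 higher in both. Classes by target residue spread more widely. The 7 writers of H3K36 and H3K79 methylation had a median of 0.27 and were all higher, by 0.07 to 0.74, in the values used here. They were also all higher under each of the scalings tried, although 2 of the 7 lay within the spot SD in the values used here. The 6 H3K9 and H3K36 erasers had a median of -0.18, with 3 higher and 3 lower, which became 0.04 with equal array medians and 0.36 with equal spike-ins. These are descriptions of 1 to 9 genes per class, and no difference between classes was tested.

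**Figure D3:**
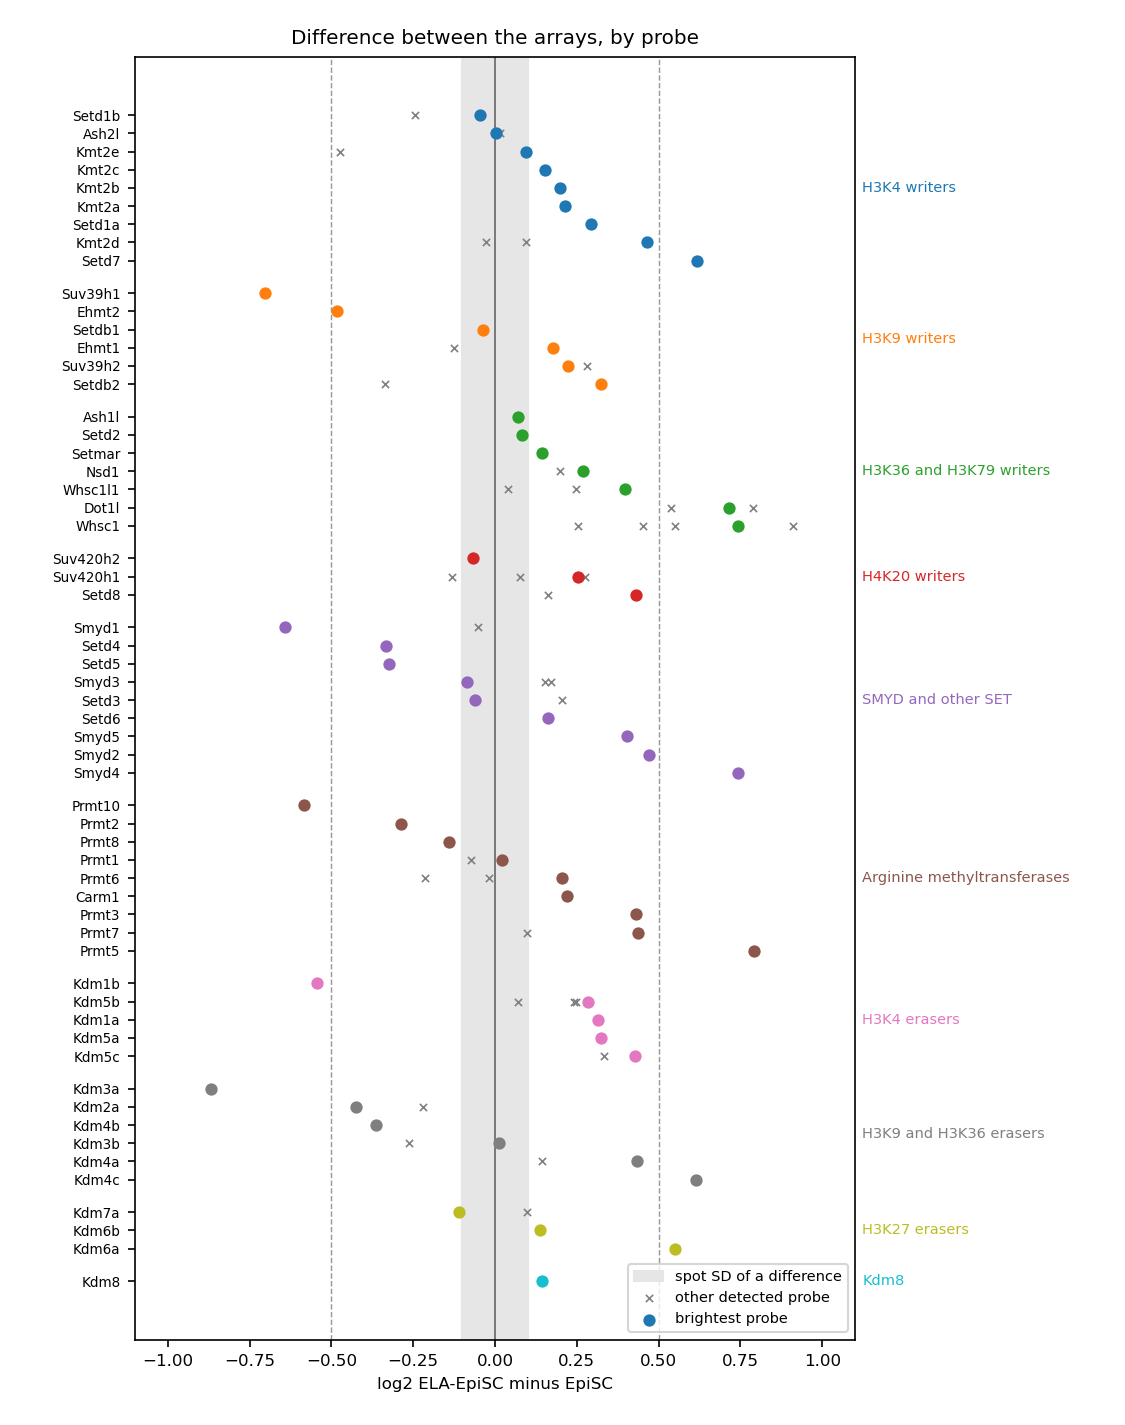
Log2 difference, ELA-EpiSC minus EpiSC (x axis), of the 58 members above background (rows, grouped by class). Coloured points are the brightest probes, crosses other probes above background of the same gene, the grey band the spot SD of 0.10, and the dashed lines 0.5 in each direction. The H3K36 and H3K79 writers lie to the right of 0 in every probe, while Kdm3a (-0.87) and Suv39h1 (-0.70) lie farthest to the left.

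Among the writers of H3K4 methylation, 7 of 8 were higher in ELA-EpiSC, with a median of 0.17, and 3 of the 8 lay within the spot SD. With the second brightest probe 5 of 8 were higher, with a median of 0.08. With equal array medians 8 of 8 were higher, with a median of 0.41. Setd7, which adds a single methyl group to H3K4 and also modifies proteins other than histones, stood at 12.67 in EpiSC against 13.28 in ELA-EpiSC, higher by 0.62 or 1.53-fold. The large KMT2 enzymes differed less. Kmt2d, which marks enhancers, had a difference of 0.46 by its brightest probe (8.36 and 8.82), while its 2 dimmer probes gave -0.03 and 0.10. Kmt2b and Kmt2c were higher by 0.20 and 0.15. Setd1a, the enzyme of the SET1 complex that acts at promoters, was higher by 0.29, and its paralog Setd1b had a difference of -0.05 that turned positive under 2 scalings. Ash2l, the subunit shared by these complexes, read 13.99 on both arrays.

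Kmt2e, a relative of the KMT2 enzymes with little methyltransferase activity of its own, was read by 2 probes that went apart. The brighter one read 10.67 and 10.76, a difference of 0.09, and the other read 10.71 and 10.23, a difference of -0.47. The first 30 bases of each 60-base probe are given in this order, since the choice of probe decides the sign; they lie at chr5:23008684-23008743 and chr5:23001946-23002005 (mm9, plus strand).
Kmt2e: acagtattccaacccctactgcttcagggt
Kmt2e: gcccccatgtatactctactcctaagcatt
Whether these stretches lie in different transcripts of the gene was not analysed here.

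The H3K9 writers were split, with 3 of 6 higher and a median of 0.07, and both depended on the processing. The median was -0.08 with the processed signal of the scanner software and -0.05 with 75th percentile scaling, with 1 of 6 higher in each. It was -0.02 (2 of 6 higher) with the mean of all probes and -0.23 (1 of 6) with the second brightest probe. Equal array medians and equal spike-ins gave 0.17 (4 of 6) and 0.61 (5 of 6). Suv39h1, which trimethylates H3K9 at pericentric heterochromatin, stood at 9.80 in EpiSC against 9.10 in ELA-EpiSC, and its difference of -0.70 was the lowest of all lysine methyltransferases. Its paralog Suv39h2 read 15.18 and 15.40, a difference of 0.22, and its other probe, at 9.46 and 9.74, gave 0.28. The pair therefore went in opposite directions by these probes, 0.93 apart, although Suv39h2 turned to -0.08 with the processed signal of the scanner software and -0.07 with 75th percentile scaling. The probe stretches behind these values are shown because that of Suv39h2 runs into a repeat of g and t. They begin the probes at chrX:7647715-7647774 and chr2:3373186-3373245 (mm9, minus strand).
Suv39h1: gggtgtccgcacgctggaaaagatccgaaa
Suv39h2: ttcggggtgtgtgtgtctgtgtgtgtgtgt
The second Suv39h2 probe lies elsewhere in the gene, at chr2:3375594-3375653.

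Ehmt1 and Ehmt2 encode GLP and G9a, which work as a dimer that dimethylates H3K9 in euchromatin. Ehmt2 went from 14.93 in EpiSC to 14.44 in ELA-EpiSC, and its difference of -0.48 became 0.05 with the spike-in RNAs set equal. Ehmt1 read 14.55 and 14.73, a difference of 0.18, whereas its second probe read 12.68 and 12.56, a difference of -0.13. The subunits of the dimer thus differed by 0.66 by their brightest probes, and the direction of Ehmt1 was not settled. Setdb1, which silences retroelements, had a difference of -0.04. Setdb2 was higher by 0.32 by its brightest probe (10.65 and 10.98) and had -0.34 by a dim one (7.03 and 6.69).

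Among lysine methyltransferases with more than 1 probe above background, H3K36 and H3K79 writers held the largest differences. Whsc1, named Nsd2 in RefSeq and a writer of H3K36 dimethylation, read 9.54 and 10.28, a difference of 0.74 or 1.67-fold. Its 5 probes were all higher in ELA-EpiSC, by 0.25 to 0.91. The brightest probe and the one with the largest difference lie at chr5:34218806-34218865 and chr5:34238461-34238520 (mm9, plus strand), and begin as follows, in that order. They are shown because separate stretches of the gene gave the same direction.
Whsc1: agcacaggattcttatcatttgtaaatcta
Whsc1: gagcagctgcctttgttttgcctgtttttc
Dot1l, the H3K79 methyltransferase, read 12.72 and 13.44, a difference of 0.72, and its 3 probes were higher by 0.54 to 0.79. The relatives of Whsc1 were higher by less. Whsc1l1 (Nsd3) had a difference of 0.40, with 3 probes from 0.04 to 0.40, and Nsd1 had 0.27, with 2 probes from 0.20 to 0.27. Setmar had a difference of 0.14, and Setd2 (0.08) and Ash1l (0.07) lay within the spot SD.

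Of the H4K20 writers, Setd8 (Kmt5a), which sets the first methyl group, was higher by 0.43, with its second probe at 0.16. Suv420h1, which adds further methyl groups, had a difference of 0.25 by its brightest probe (9.96 and 10.21), and its other 3 probes ran from -0.13 to 0.27. Suv420h2 had -0.07, within the spot SD. The class thus held a member that was higher by both of its probes and none that was lower by more than the spot SD by its brightest probe.

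The SMYD and remaining SET proteins, many of which methylate proteins other than histones, had a median of -0.06 with 4 of 9 higher, and 0.16 and 0.48 under the equal-median and spike-in settings. Smyd4 read 8.83 and 9.57, a difference of 0.74. Smyd1, a regulator of striated muscle, read 11.11 and 10.47, a difference of -0.64, while its second probe, at 6.33 and 6.28, gave -0.05. Smyd1 thus passed 0.5 by 1 of its probes, and the 7 members of the class other than Smyd4 and Smyd1 stayed below that size. Smyd2, which methylates p53 among others, was higher by 0.47, Smyd5 by 0.40 and Setd6 by 0.16. Setd4 (-0.33) and Setd5 (-0.32) were lower in the values used here and turned to 0.20 and 0.21 with the spike-in RNAs set equal. Setd3, an actin methyltransferase, read 12.23 and 12.17, and Smyd3 read 8.83 and 8.75. Both lay within the spot SD, at -0.06 and -0.09, and their dimmer probes were higher, by up to 0.20 and 0.17.

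Prmt5 showed the largest positive difference of the family. It makes symmetric dimethylarginine on histones and splicing proteins, and went from 13.64 in EpiSC to 14.43 in ELA-EpiSC, which is 0.79 or 1.73-fold, by its single probe. Further genes, 7 in number, were listed with the arginine methyltransferases, and not all of them are direct partners. Wdr77, the obligate cofactor of Prmt5, read 12.32 and 13.07 (0.75, with a second probe at 0.46). The adaptor Riok1 read 10.39 and 10.94 (0.55). The other Prmt5 adaptors Clns1a and Coprs had 0.06 and -0.14. On the opposite side lay Btg1 (-0.56), Btg2 (-0.81) and Tob1 (-0.82), growth-restraining proteins of which Btg1 and Btg2 bind Prmt1. Of the 7, 2 were higher and 3 lower by 0.5 or more, with a median of -0.14.

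Prmt1, the main source of asymmetric dimethylarginine, had the brightest probe of all members, 16.11 in EpiSC and 16.14 in ELA-EpiSC, and its difference of 0.02 changed sign under 4 scalings. Prmt7 (0.44) and Prmt3 (0.43) were higher by their brightest probes, Prmt7 by 0.10 with its second probe. These were the next largest of the class after Prmt5. Carm1, a coactivator, was higher by 0.22. Prmt6 had 0.20 by its brightest probe (10.50 and 10.71), while its other probes gave -0.02 and -0.22. Prmt10, named Prmt9 in RefSeq, read 12.12 and 11.53, a difference of -0.58, and Prmt2 had -0.29, which turned to 0.25 with the spike-in RNAs set equal. Without Prmt5 and Prmt10, no tested arginine methyltransferase reached 0.5.

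Among the H3K4 erasers, 4 of 5 were higher, with a median of 0.32 that was 0.11 (3 of 5 higher) with the processed signal of the scanner software and 0.10 with 75th percentile scaling. Kdm1a was the median member in each case. Kdm1a (LSD1), which works with CoREST, read 14.58 and 14.89, a difference of 0.32, whereas its paralog Kdm1b (LSD2) read 10.92 and 10.37, a difference of -0.55. The paralogs were 0.86 apart. The KDM5 enzymes, which remove H3K4 trimethylation, were all higher: Kdm5c by 0.43 with its second probe at 0.33, Kdm5a by 0.32, and Kdm5b by 0.28 with 4 probes from 0.07 to 0.28. Kdm5b, at 14.66 and 14.94, turned to -0.03 with the processed signal of the scanner software.

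The H3K9 and H3K36 erasers held the lowest value of the family. Kdm3a, an H3K9 demethylase, went from 13.04 in EpiSC to 12.17 in ELA-EpiSC, which is -0.87 or 1.83-fold lower, by its single probe. Kdm3b, its paralog, read 9.69 and 9.71, a difference of 0.01, while a dimmer probe gave -0.26. The KDM4 enzymes, which act on H3K9 and H3K36, went apart. Kdm4c read 12.16 and 12.77, a difference of 0.61, and Kdm4a was higher by 0.43 with its second probe at 0.14. Kdm4b had -0.36 and the H3K36 demethylase Kdm2a had -0.42, its second probe -0.22, and the brightest probes of both turned positive, to 0.17 and 0.11, with the spike-in RNAs set equal. Kdm4b and Kdm4c were 0.98 apart, the widest of the 13 paralog pairs compared.

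The H3K27 erasers were both higher. Kdm6a (UTX), the X-linked subunit of enhancer-marking KMT2 complexes, read 9.79 and 10.34, a difference of 0.55, and the inducible Kdm6b (JMJD3) had 0.14. Kdm8, a Jumonji protein first described as an H3K36 demethylase, had 0.14.

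The start regions of 4 members are printed to show the sequence upstream of the lowest and highest values, Kdm3a and Prmt5, and of the Suv39h pair that went apart. They come from RefSeq (GRCm38.p6), all on the minus strand, and hold bases before the start site that lie outside annotated genes. The stretches are chr6:71632991-71633167 for Kdm3a, chrX:8074761-8075010 for Suv39h1, chr2:3474987-3475236 for Suv39h2 and chr14:54517471-54517695 for Prmt5. Their lengths are unequal: 250 bases for each of the Suv39h pair, 225 for Prmt5 and 177 for Kdm3a. That of Kdm3a ends at -74 from the start site, so the bases nearest the start are not shown. Capitals mark CCAAT and GGGCGG on either strand, which reads ATTGG and CCGCCC on the other, and these motifs do not overlap one another.
Kdm3a: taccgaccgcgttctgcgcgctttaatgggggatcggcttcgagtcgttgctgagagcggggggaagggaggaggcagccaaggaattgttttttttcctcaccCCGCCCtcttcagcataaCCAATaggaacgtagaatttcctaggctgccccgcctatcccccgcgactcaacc
Suv39h1: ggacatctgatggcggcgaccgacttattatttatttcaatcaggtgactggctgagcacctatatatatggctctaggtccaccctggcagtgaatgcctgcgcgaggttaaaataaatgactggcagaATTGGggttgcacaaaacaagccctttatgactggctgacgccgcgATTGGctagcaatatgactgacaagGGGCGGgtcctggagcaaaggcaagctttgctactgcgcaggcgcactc
Suv39h2: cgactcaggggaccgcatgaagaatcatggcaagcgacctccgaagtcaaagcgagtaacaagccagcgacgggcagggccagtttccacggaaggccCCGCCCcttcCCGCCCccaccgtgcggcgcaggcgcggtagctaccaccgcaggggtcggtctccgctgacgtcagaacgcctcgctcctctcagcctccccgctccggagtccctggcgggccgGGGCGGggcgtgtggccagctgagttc
Prmt5: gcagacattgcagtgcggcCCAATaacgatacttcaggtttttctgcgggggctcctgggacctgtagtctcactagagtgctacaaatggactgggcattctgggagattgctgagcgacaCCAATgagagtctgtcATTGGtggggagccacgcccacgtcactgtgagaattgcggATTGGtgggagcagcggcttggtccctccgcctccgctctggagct
The printed stretch of Prmt5 holds 4 CCAAT boxes and 0 GGGCGG boxes, that of Suv39h2 0 and 3, that of Suv39h1 2 and 1, and that of Kdm3a 1 and 1. The count of Kdm3a depends on the shorter stretch, as its whole window of 300 bases holds 2 and 3. A promoter window of 300 bases was at hand for 44 of the 60 members. CCAAT was present in 45.5% of them, against 39.2% of 10057 genes measured here and 38.0% of all 27025 windows. GGGCGG was present in 63.6%, against 64.4% and 35.9%, and the median number of CpG was 23, against 21 and 7. In these features the members were close to genes measured in these cells, and letters in a window are no sign of a bound factor.

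Partner proteins of the other enzymes all differed by less than 1. Of 12 partners of the H3K4 complexes measured, Rbbp5 (0.62) and Hcfc2 (0.53) were higher and Dpy30 (-0.55) was lower by 0.5 or more, with a median of 0.11, although Rbbp5 and Dpy30 are both core subunits. Of 11 partners of LSD1 and CoREST, Zmym3 (0.57) passed 0.5 by its brightest probe, while its second probe gave 0.05. The median was 0.07. Of 12 proteins that read or assist H3K9 methylation, 0 passed 0.5 and the median was 0.04. Of 11 partners of Dot1l and the H3K36 writers, Mllt6 (0.78) and Supt6 (0.62) were higher by 0.5 or more, and the median was 0.19. The second probe of Supt6 gave 0.03.

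Markers of other cell types also differed between the arrays, by more than the members did. Epiblast markers were well above background on both arrays for 12 of 12 genes, among them Pou5f1 (14.27 in EpiSC, 14.46 in ELA-EpiSC) and Otx2 (15.86 on both), with a summed log2 level of 18.59 in each. They were not level one by one: 4 were higher by 0.5 or more, of which Zic2 (1.68), Pou3f1 (1.46) and Tdgf1 (1.19) passed 1, and Dnmt3b, the brightest of them at 17.07 and 16.24, was lower, with a difference of -0.84. The median of the 12 was 0.25. Of 10 visceral endoderm markers measured, 8 were lower in ELA-EpiSC and 5 by 1 or more, with a median of -1.66. The summed level of the 12 above background on at least 1 array was 15.92 in EpiSC and 15.01 in ELA-EpiSC. Ttr and Apoa1 were not well above background in ELA-EpiSC. Of 8 fibroblast and mesenchyme markers measured, 8 were higher and 4 by 1 or more, with a median of 1.03. The summed levels of the 10 above background on at least 1 array were 13.90 and 16.09, and the brightest was Vim (13.39 and 15.91). Of 7 neural markers measured, 5 were higher, with a median of 0.60, while Hes5 (-0.95) and Sox1 (-0.09, with a second probe at 0.16) were lower. The summed levels of the 8 above background were 13.99 and 15.96, and the brightest were Nefl (13.06 and 15.24) and Nes (12.26 and 14.37). Pax6 stayed at background on both arrays. In bulk RNA fewer cells of a type and less RNA per cell cannot be told apart, and the part of these markers in the members' differences was not tested.

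The arrays were alike in detection: probes well above background made up 65.9% of 55681 in EpiSC and 65.0% in ELA-EpiSC, and 0 spots were saturated. They were not alike in the spike-in RNAs, whose 8 detected probes differed by -0.54 on average after normalization. Of the 25 members with more than 1 probe above background, 14 had all probes on the same side of 0, and 4 (Ehmt1, Prmt6, Setdb2 and Suv420h1) had probes past the spot SD on both sides. Members past 0.5 kept their direction in 12 of 12 cases under 17 other ways of processing the arrays, and 33 of all 55 members did. The 7 higher members also kept their size of 0.5 in all 17, but the 5 lower ones did not. At their smallest, Kdm1b reached -0.008, Prmt10 -0.05 and Smyd1 -0.05, all within the spot SD. Suv39h1 reached -0.17 and Kdm3a -0.33.

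**Figure D4:**
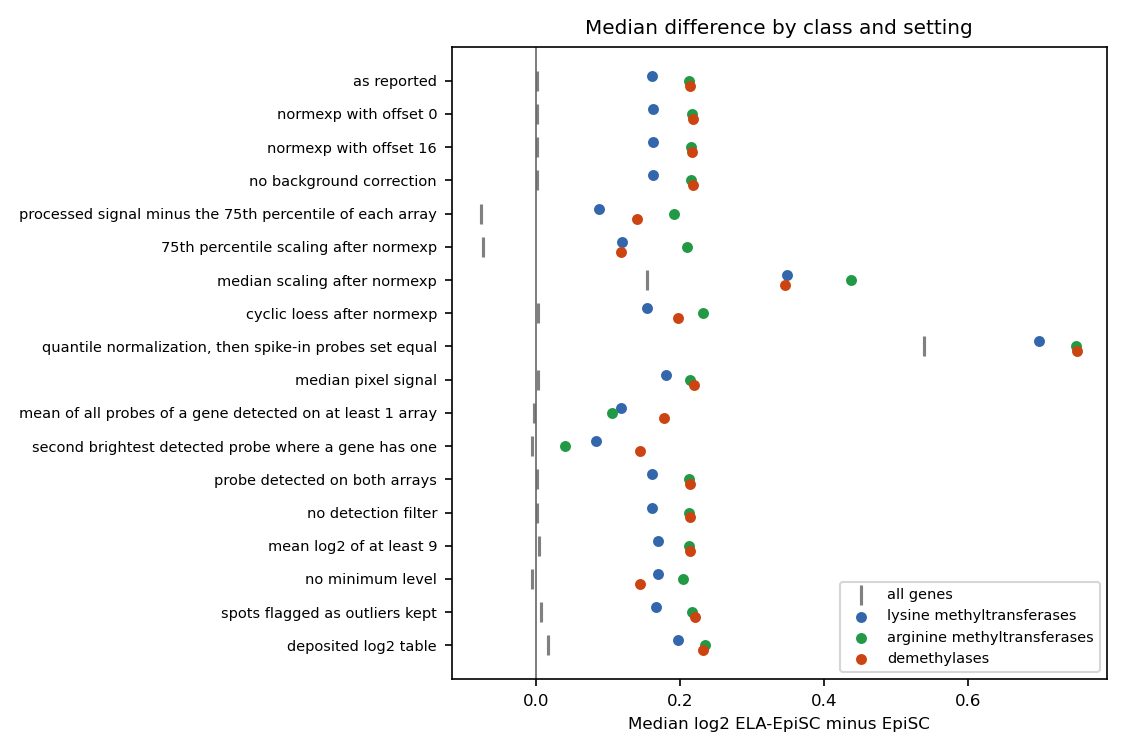
Median log2 difference, ELA-EpiSC minus EpiSC (x axis), of lysine methyltransferases, arginine methyltransferases, demethylases and all genes (grey ticks) under the processing used here and 17 alternatives (rows). All 3 class medians lie to the right of all genes in each row, the median of all members being 0.14 to 0.22 above it, while the common shift reaches 0.54 with the spike-in RNAs set equal.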

How the data were processed

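The deposited scanner files hold spot intensity, made by the authors with Feature Extraction (10.7.3.1 per the file headers, 9.1 in the submitters' processing notes) on Agilent 60-base arrays with mm9 probe coordinates; both arrays were on 1 slide and in 1 scan. The authors also deposited log2 values per probe, background-corrected and quantile normalized with limma, which served as an alternative (their differences correlated across probes at r = 0.890 with those used here).

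Here, mean signals were corrected by normexp with an offset of 50 (limma 3.58.1, R 4.3.3), control and outlier spots (158 in EpiSC, 117 in ELA-EpiSC) were left out, arrays were quantile normalized, and spots of a probe were averaged as log2. The offset compresses differences of dim probes, and quantile normalization hides a shift shared by all genes. A probe was above background where at least 0.5 of its spots carried that flag. Genes needed a mean log2 of at least 7.5, a minimum taken with the size of 1 from the study's methods. Steps were tested on simulated data. With 1 array per group there is no test. Both values are given for members past 0.5, for the 5 brightest and for those whose probes differ in sign; other members are given by their difference. Gene names are those of the array. The accession of the probe used matched RefSeq for 56 of 60 members, and 5 of these carry another name there. Dot1l and Suv420h1 (Kmt5b in RefSeq) matched by other probes only. The members, lists, sizes and alternatives were chosen with earlier results of these data known. Tools were Python 3.11.15, pandas 2.3.3 and numpy 2.4.6.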

Additional observations from a re-analysis of the deposited data

How the results depend on the processing

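The members' values were recomputed under 17 alternatives of background correction, scaling, probe choice, detection and minimum level, and 138 of 153 summary values moved by less than the spot SD or, for counts, by no more than 1.5 times. With the arrays set to equal medians, the median difference was 0.36 for all members, 0.35 for lysine methyltransferases, 0.44 for arginine methyltransferases and 0.35 for demethylases, with 19 members higher and 1 lower by 0.5 or more. With the spike-in RNAs set equal, these medians were 0.72, 0.70, 0.75 and 0.75, with 40 members higher and 0 lower by 0.5 or more, and 9 higher by 1 or more. The 8 spike-in probes above background differed by -0.54 on average (-0.86 to -0.26) in the quantile normalized values, so this setting raises each gene by that amount. The median of arginine methyltransferases was 0.11 with the mean of all probes and 0.040 with the second brightest probe. The share of all genes higher in ELA-EpiSC was 43.1% with 75th percentile scaling, 64.3% with equal medians and 87.6% with equal spike-ins, beside 63.6%, 78.2% and 90.9% of the members. No value changed sign among members past 0.5, although Kdm1b, Prmt10 and Smyd1 came within the spot SD under at least 1 alternative. No paired analysis was possible because there is only 1 array for EpiSC and 1 for ELA-EpiSC, and no replicate could be left out.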

Other observations

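Relatives of the members that the naming rule did not take were also read. Of 11 further Jumonji proteins, 4 were higher by 0.5 or more and 0 lower, with a median of 0.23. Jmjd1c, a relative of Kdm3a, went from 13.31 in EpiSC to 14.29 in ELA-EpiSC, which is 0.98, while its second probe gave 0.04. Jmjd7 (0.86), Hr (0.60) and Jmjd4 (0.52) were the others. With the spike-in RNAs set equal, each difference in these paragraphs is higher by 0.54.

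Among further SET and PRDM proteins, Prdm6, a repressor known from smooth muscle, went from 9.17 in EpiSC to 6.68 in ELA-EpiSC, and this difference of -2.49 exceeded that of any member. Ezh1, a catalytic subunit of PRC2, had -0.55. Prdm16 read 7.91 in EpiSC and was not well above background in ELA-EpiSC (6.02), and Prdm14, a regulator of naive pluripotency, was at background on both arrays.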
